A study of Saccharomyces cerevisiae with 2 samples.

Results

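Cryptic unstable transcripts (CUTs), stable unannotated transcripts (SUTs) and Xrn1-sensitive unstable transcripts (XUTs) were examined in CRAC data of the yeast protein Sni445. All features that the annotation of the authors places in these 3 classes and that had reads in either of the 2 libraries were taken, which gave 448 of 5758 features, made up of 114 CUTs, 109 SUTs and 225 XUTs. In CRAC, a protein is bound covalently to RNA by UV light in living cells and purified through a tag, and the RNA pieces still attached are sequenced as cDNA. One strain, named Sni445-HTP, carried the gene SNI445 fused at its own chromosomal locus to a C-terminal HTP tag, made of a His tag, a TEV protease site and protein A, with the marker klURA3. The other was the untagged control, so that its reads are RNA recovered without a tagged protein. Both are of the background BY4741, a MATa strain with mutant his3, leu2, met15 and ura3 genes, and were grown in YNB medium without tryptophan, with glucose, to an optical density of 0.6, cross-linked for 100 seconds and amplified through 16 cycles of PCR. There was 1 library per strain and therefore no replicate check, no p-value and no estimate of the spread between cultures.

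The 3 classes are products of RNA polymerase II outside the catalogue of genes, and many start at the shared promoters of neighbouring genes or run antisense to a gene. CUTs are removed in the nucleus by the exosome with its exonuclease Rrp6 and are seen mainly when that pathway is blocked. SUTs escape this decay and can be found in wild-type cells, whereas XUTs are degraded in the cytoplasm by the 5′ to 3′ exonuclease Xrn1. Neither strain was described as lacking one of these decay enzymes.

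The Sni445-HTP library held 21867727 mapped reads and 26984818 sense counts, and the control 12654405 and 22960662. A sense count is a read on the strand of the feature, an antisense count a read on the opposite strand, and each feature that a read overlaps received a count for it. Most of the Sni445-HTP library lies on a few snoRNAs and their flanks, and over the 1044 features with sense reads in both libraries the median log2 ratio of shares was -5.34. Ratios between the libraries are therefore read against this shift. Counts are not per length, since the places and lengths of the members were not analysed here, and they give no level that can be compared between transcripts.

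A large part of the reads on these transcripts was also counted on a gene of the other strand. Printed below are 4 small nucleolar RNAs (snoRNAs) opposite a SUT or an XUT, given because their sense reads equalled the antisense reads of the transcript in at least 1 library. The strand opposite the gene YOR381W-A is given because all reads of SUT801 were also counted there. These sequences were taken by gene name from the RefSeq annotation of the R64 genome and are written 5′ to 3′ as DNA. Capitals mark TGATGA within 30 bases of the 5′ end and CTGA within 30 bases of the 3′ end, letters of the boxes C and D, and ACA at 3 bases from the 3′ end, the last box of the H/ACA family. Only the strand of the RNA was searched, and the motifs do not overlap. Of the 76 annotated snoRNAs, TGATGA was found in 50%, CTGA in 61.8% and ACA at its place in 22.4%.
snR69, opposite SUT678 and XUT_11R-166, chrXI:364776-364876, plus strand: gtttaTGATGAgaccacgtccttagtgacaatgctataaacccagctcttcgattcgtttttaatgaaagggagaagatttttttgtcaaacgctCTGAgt
snR68, opposite XUT_9R-38, chrIX:97111-97246, plus strand: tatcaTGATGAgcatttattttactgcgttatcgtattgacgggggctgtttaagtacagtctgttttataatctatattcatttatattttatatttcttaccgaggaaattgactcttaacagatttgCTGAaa
snR87, opposite XUT_11F-191, chrXI:431030-431138, minus strand: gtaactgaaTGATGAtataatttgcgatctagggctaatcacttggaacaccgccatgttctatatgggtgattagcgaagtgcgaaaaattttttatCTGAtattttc
snR161, opposite XUT_2F-118, chrII:307185-307345, minus strand: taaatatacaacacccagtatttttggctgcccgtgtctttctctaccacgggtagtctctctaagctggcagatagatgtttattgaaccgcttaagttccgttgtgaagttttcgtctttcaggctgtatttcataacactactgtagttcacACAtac
strand opposite YOR381W-A, chrXV:1058423-1058590, minus strand: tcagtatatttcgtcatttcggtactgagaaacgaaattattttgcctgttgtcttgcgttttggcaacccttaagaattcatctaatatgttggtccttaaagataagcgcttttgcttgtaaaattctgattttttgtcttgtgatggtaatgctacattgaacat
In these letters snR69, snR68 and snR87 hold both the TGATGA and the CTGA motif, and snR161 holds ACA at its place. A further snoRNA, snR81 opposite CUT831, also had equal reads in the control, but its sequence is not printed. None of these motifs was found in snR81 at the places searched. No motif was searched in the strand opposite YOR381W-A.

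More transcripts of the 3 classes were listed with Sni445-HTP than in the control, but each with few reads. With Sni445-HTP 399 were listed, 100 CUTs, 98 SUTs and 201 XUTs, and in the control 105, 24 CUTs, 29 SUTs and 52 XUTs. Only 56 were listed in both libraries, while 343 were listed with Sni445-HTP alone and 49 in the control alone. Of the 5310 features outside the classes, 1797 were listed in both, 3082 with Sni445-HTP alone and 431 in the control alone. The number listed was 4.17 times that of the control for CUTs, 3.38 times for SUTs and 3.87 times for XUTs, against 3.06 times for protein-coding genes and 2.03 times for intergenic regions. The libraries differ in depth, and the part of depth in these numbers was not tested. Sense reads in both libraries were seen on just 17 of the 448, namely 4 CUTs, 8 SUTs and 5 XUTs. Outside the classes they were seen on 1027 of 5310 features.

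The reads themselves were fewer with Sni445-HTP in all 3 classes. CUTs held 457 sense and 633 antisense reads with Sni445-HTP and 2860 and 23612 in the control. SUTs held 313 and 1193 reads against 17948 and 17003. XUTs held 148 and 2091 reads against 19724 and 59124. The XUTs, the largest class by number, thus had the fewest sense reads with Sni445-HTP and the most in the control.

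Shares of all sense counts were given exact Clopper-Pearson intervals at 95%. CUTs made up 0.00169% of the Sni445-HTP counts (0.00154 to 0.00186) and 0.0125% of the control counts (0.0120 to 0.0129). For SUTs the shares were 0.00116% (0.00103 to 0.00130) and 0.0782% (0.0770 to 0.0793). For XUTs they were 0.000548% (0.000464 to 0.000644) and 0.0859% (0.0847 to 0.0871). These intervals cover counting error only, since PCR copies of a read are not independent molecules.

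The log2 ratio of Sni445-HTP over the control was -2.88 for CUTs, -6.07 for SUTs and -7.29 for XUTs, and -5.70 for the classes together. Protein-coding genes stood at -5.34, tRNAs at -5.85 and snoRNAs at 3.38. Relative to the median of the features with sense reads in both libraries, the pooled ratios of SUTs and XUTs were lower and that of CUTs higher. The values were -0.73, -1.95 and 2.46 after median ratio scaling and -0.94, -2.16 and 2.25 after TMM scaling, so the direction for CUTs reverses with the scaling. The measures are unlike, since a class ratio pools all members, also those with 0 reads in 1 library. The value for CUTs also rested on CUT459, without which it was -0.34. When distinct cDNAs of both directions were used in place of reads, a choice made after seeing the data, the ratio was 0.044 for CUTs, -0.34 for SUTs and -0.43 for XUTs. A class ratio here is thus a ratio of read shares and not of the number of distinct cDNAs.

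**Figure D1:**
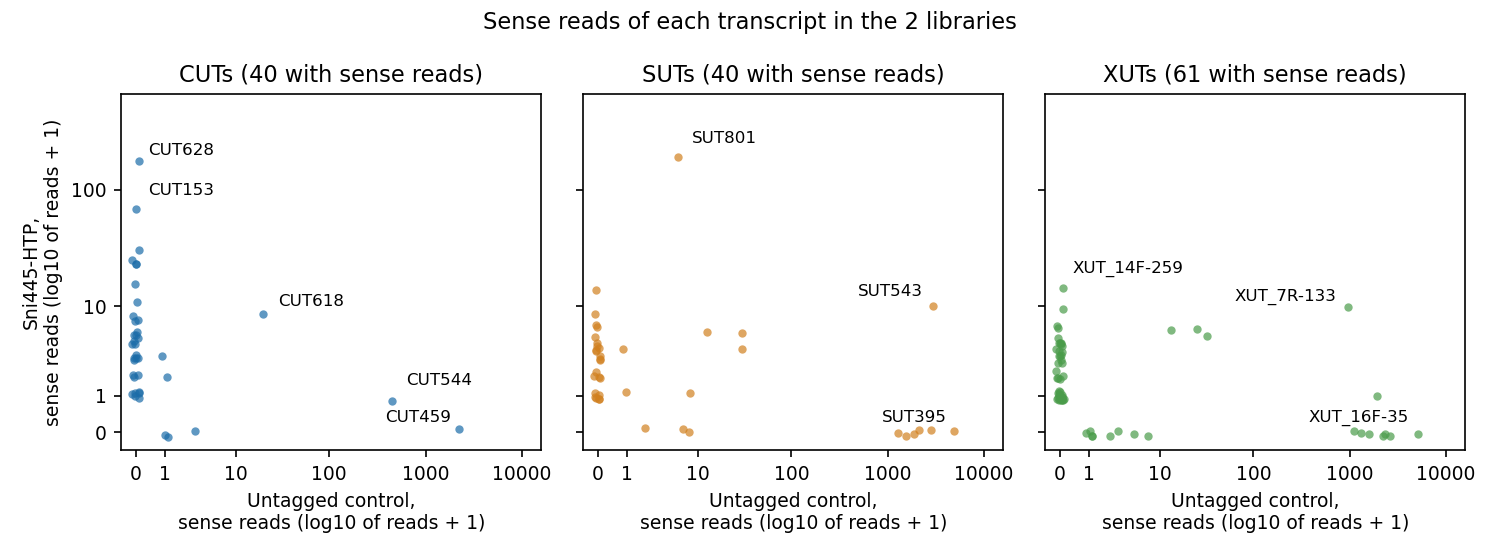
Each point is 1 CUT, SUT or XUT with a sense read in either library, with sense reads in the untagged control on the x axis and with Sni445-HTP on the y axis, both as log10 of reads + 1 with labels in reads and a small random shift so that points do not hide each other. Most points lie on an axis: CUT628 has 158 reads against 0, SUT801 has 199 against 6, and CUT459 has 0 against 2368.

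The members were compared one by one with a rule of size, a transcript being called higher if it had 100 or more sense reads with Sni445-HTP and if its share exceeded the control share 4-fold or more. Only CUT628 and SUT801 reached the minimum of reads, and both were called, while no XUT reached it. Over all features, 38 of 179 with the minimum, or 21.2%, were called higher, and a count of 2 members is too small to be read against that share.

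CUT628 had 158 sense reads with Sni445-HTP, from 21 distinct cDNAs, and 0 in the control, and no antisense read in either library. Against a floor of 3 control reads its share was at least 44.8-fold higher, and the exact interval of the ratio started at 36.02. Of the 158 reads, 126 were within a read length of 30. The intergenic feature INT_0_3870, chosen after the values were seen, had 164 sense reads from 23 cDNAs with Sni445-HTP and 0 in the control, that is 6 reads more than CUT628. CUT153 showed the same on a smaller scale, with 74 reads from 19 cDNAs against 0, beside 76 reads from 20 cDNAs on INT_0_3718. These 2 CUTs held 50.8% of the sense reads of their class. Without CUT628 the log2 ratio of the class was -3.49.

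SUT801 had 199 sense reads from 11 cDNAs with Sni445-HTP and 6 reads from 1 cDNA in the control, a share 28.2-fold higher (exact conditional binomial 95% interval 12.7 to 77.8). All reads of both libraries were within the length of 30. The intergenic region INT_0_8371 and the strand opposite YOR381W-A had the same 199 and 6 reads, so that the reads overlapped the sequence given above for the 168 bp of that gene. SUT801 held 63.6% of the SUT sense reads with Sni445-HTP, and without it the log2 ratio of SUTs was -7.53.

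The remaining transcripts with most sense reads in Sni445-HTP were near the limit of detection. CUT567 had 30 reads from 7 cDNAs and CUT677 had 25 from 7. CUT155 had 24, which together with 3 antisense reads came from 9 cDNAs. Each had 0 in the control. Among SUTs, SUT030 had 13 sense reads and SUT153 had 9, both with 0 in the control. SUT543 had 10 against 2968 in the control, and SUT193 had 6 against 13. Among XUTs, XUT_14F-259 had 16 reads from a single cDNA and XUT_15R-442 had 10 from 2 cDNAs, both with 0 in the control. XUT_7R-133 had 9 from 6 cDNAs against 942 in the control. XUT_12R-141 had 7 from 1 and XUT_5R-194 had 6 from 2, again with 0 in the control. The leading XUT thus held 10.8% of the sense reads of its class, with no transcript standing out as CUT628 and SUT801 did.

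In the opposite direction, a transcript was called lower with 100 or more control reads and a control share that exceeded the other 4-fold or more. All 18 members with the minimum were called, 2 CUTs, 7 SUTs and 9 XUTs, where 895 of 911 features of all kinds, or 98.2%, were called by the same rule. The share is that of the background and is no result about these transcripts.

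Among the 18, CUT459 had 2368 reads from 23 cDNAs in the control and 0 with Sni445-HTP, all of them within the length of 30. Against a floor of 3 reads with Sni445-HTP this is at least 928-fold lower, and the exact interval of the ratio of Sni445-HTP over the control ended at 0.00133. CUT544 had 464 reads from 34 cDNAs against 1, none within the length of 30. With CUT459 it made up 99.02% of the CUT sense reads of the control. CUT618 followed with 21 reads against 8, and CUT779 and CUT427 had 3 and 1, against 0 and 3 with Sni445-HTP.

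The largest SUT of the control was SUT395, with 5293 sense reads from 84 cDNAs against 0, followed by SUT543 with 2968 from 46 cDNAs against 10 from 7 cDNAs. SUT543 was the only one of the 448 with at least 10 sense reads in both libraries. The other SUTs called lower were SUT043, SUT745, SUT627, SUT509 and SUT802, with 2654, 2252, 1884, 1499 and 1295 control reads and 0 with Sni445-HTP. Among XUTs, XUT_16F-35 led with 5293 reads against 0, XUT_10R-84 had 1884 against 1 and XUT_7R-133 had 942 against 9. The other XUTs called lower had 0 with Sni445-HTP. They were XUT_4F-160, XUT_16F-206, XUT_14R-75, XUT_5R-93, XUT_4F-255 and XUT_15R-289, with 2654, 2522, 2252, 1499, 1421 and 1163 control reads. The control sense reads of SUTs and XUTs were thus spread over more transcripts than those of CUTs, with 90% on 6 SUTs, 8 XUTs and 2 CUTs. For antisense reads of the control these numbers were 5, 16 and 9.

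SUTs and XUTs are overlapping catalogues, and several of the largest pairs are 1 set of reads counted under both names. In the control 14 SUTs had the same sense, antisense and cDNA numbers as 14 XUTs. These pairs held 75.9% of the SUT sense reads and 69.1% of the XUT sense reads, and 60.7% and 17.4% of the antisense reads. SUT395 and XUT_16F-35 shared 5293 reads, SUT043 and XUT_4F-160 shared 2654, and SUT745 and XUT_14R-75 shared 2252. The values of SUTs and XUTs are therefore not independent of each other.

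Reads on the 3 classes were mostly antisense, except on SUTs in the control, and the classes and the libraries differed in how far. With Sni445-HTP the sense part of the reads was 41.9% for CUTs (39.0 to 44.9), 20.8% for SUTs (18.8 to 22.9) and 6.61% for XUTs (5.62 to 7.72). In the control it was 10.8% (10.4 to 11.2), 51.4% (50.8 to 51.9) and 25.0% (24.7 to 25.3). CUTs thus had the larger sense part with Sni445-HTP and SUTs and XUTs the larger one in the control. Protein-coding genes had 46.6% and 67.6%, and reads on annotated snoRNAs, snRNAs and tRNAs were all sense. The 46.6% rests on few features, since 1 held 78.4% of the antisense and 1 held 55.5% of the sense reads. By number, 87.1% of the protein-coding genes listed with Sni445-HTP and 79.2% in the control had sense reads.

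These parts rest on few transcripts. Without CUT628 the sense part of CUTs with Sni445-HTP was 32.1%, and without SUT801 that of SUTs was 8.72%. Without SUT678 that of SUTs was 39.2%, and without XUT_11R-166 that of XUTs was 9.66%. In the control the sense part of CUTs was 2.04% without CUT459, that of SUTs 42.7% without SUT395, which ends their sense majority, and that of XUTs 19.6% without XUT_16F-35. By number of transcripts, sense reads were found on 36 CUTs, 31 SUTs and 46 XUTs of those listed with Sni445-HTP, or 36%, 31.6% and 22.9%, and antisense reads alone on 64, 67 and 155. In the control sense reads were found on 8, 17 and 20, and antisense reads alone on 16, 12 and 32. Of the 56 transcripts listed in both libraries, the leading direction was the same for 10 of 10 CUTs, 15 of 18 SUTs and 26 of 28 XUTs.

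**Figure D2:**
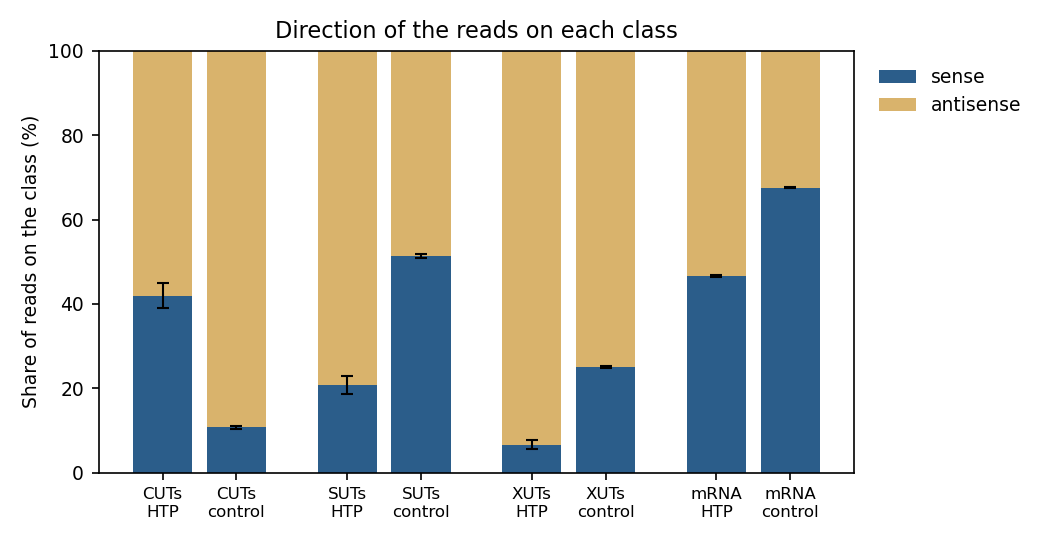
Bars give, for each class and library, the part of the reads in sense (dark) and antisense (light) in percent of all reads on the class, with 95% Clopper-Pearson intervals of the sense part that cover counting error only, and mRNA stands for protein-coding genes. The sense part of CUTs is 41.9% with Sni445-HTP and 10.8% in the control, whereas that of SUTs is 20.8% and 51.4%. On mRNA, 1 feature holds 78.4% of the antisense reads with Sni445-HTP.

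Where a member and a gene had the same reads with strands exchanged, under both length limits and with the same cDNA number, the gene was taken as lying opposite the transcript. In the control 41 of the 75 members with at least 10 reads had exactly 1 such gene, on the opposite strand for 40 and on the same strand for XUT_16F-206, which had the 2522 sense reads of SWI1, a subunit of the chromatin remodeller SWI/SNF. These 41 held 76.4% of the reads of the 75. With Sni445-HTP 23 of 78 had 1 such gene, 22 of them opposite, with 60.0% of the reads.

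The names of XUTs give the chromosome and the strand, which the matching did not use. For the 20 XUTs with a placed gene in the control, chromosome and strand in the name fitted those of the gene in R64 for 20 of 20. With Sni445-HTP the chromosome fitted for 10 of 11 and the strand for 11 of 11, the exception being XUT_4R-56, whose 13 reads equalled those of IMD3 on chromosome XII. The match of XUT_13F-222 with YHR063W-A is not in these numbers, since that gene was not placed in R64. By its systematic name that gene is on chromosome VIII, whereas the XUT name gives chromosome 13. Equal counts are a description and not a map, and at low counts they can arise by coincidence.

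In the control, 59382 of the 99739 antisense reads on these transcripts were on the 20 members opposite a protein-coding gene by exactly equal counts. XUT_5F-12 had the 7267 reads of PRB1, the vacuolar protease B, which together with 1 sense read came from 115 cDNAs. With Sni445-HTP it had 9. CUT025 had the 4661 reads of PHO5, a phosphatase induced when phosphate is scarce, and with Sni445-HTP 3. SUT153 had the 4646 reads of SOD2, the mitochondrial superoxide dismutase, and with Sni445-HTP 1. The pattern was the same for XUT_14R-210 opposite SUN4, a cell wall protein, with 5676 against 0, and for CUT710 opposite MIF2, a centromere protein, with 3285 against 0. SUT240 and XUT_11F-230 had the 4537 reads of YSR3, a phosphatase of sphingolipid metabolism, against 0, and CUT252 the 2281 of AAT2, an aspartate aminotransferase, against 2.

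Sense reads of the control with a gene opposite were found on fewer transcripts. SUT395 and XUT_16F-35 lay opposite CIN2, a tubulin folding factor, on chromosome XVI from 95372 to 96258. SUT043 and XUT_4F-160 lay opposite the kinase gene MRK1, SUT745 and XUT_14R-75 opposite YTP1, SUT627 and XUT_10R-84 opposite SET4 and SUT802 opposite FRE5, a putative ferric reductase. XUT_15R-289 lay opposite DCS2, a regulator of mRNA cap breakdown, and CUT618 opposite YGR126W. In the control none of these 7 genes had a sense read, so all reads there were on the strand of the noncoding transcript. With Sni445-HTP only DCS2 had sense reads, 5 from 1 cDNA.

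With Sni445-HTP the 3 classes held 3917 antisense reads. Of these, 1629 were on 5 members with the reads of a snoRNA gene and 109 on 3 with those of a tRNA gene. A further 216 were on 14 members whose reads equalled those of a protein-coding gene. The 216 include the 13 reads each of XUT_4R-56 and CUT475, equal to IMD3 on chromosome XII. They also include the 16 of XUT_13F-222, equal to YHR063W-A. The names of both XUTs give another chromosome than that of the gene. The snoRNA value holds the same 707 reads under 2 names. These are SUT678 and XUT_11R-166, which had the 707 reads of snR69, a box C/D snoRNA that guides rRNA methylation, from 25 cDNAs, and the 2219 reads from 5 cDNAs in the control. These 707 reads made up 59.3% of the SUT antisense reads with Sni445-HTP. XUT_9R-38 had the 118 reads of snR68 from 32 cDNAs and XUT_11F-191 the 36 reads of snR87 from 15, both with 0 in the control. snR68 and snR87 are box C/D snoRNAs too, and the TGATGA and CTGA motifs of the 3 RNAs are in the sequences above.

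The other partners were of several kinds. XUT_2F-118 had the 61 reads of snR161, an H/ACA snoRNA, from 21 cDNAs against 2610 from 33 in the control. CUT831 had 110 antisense reads with Sni445-HTP, where snR81, another H/ACA snoRNA, had 201, and the same 1718 reads as snR81 in the control. XUT_5F-75 had 156 antisense reads from 38 cDNAs with Sni445-HTP, where the U4 snRNA gene SNR14 had 149, and the same 1831 reads as that gene in the control. H/ACA snoRNAs guide pseudouridylation, and U4 pairs with U6 in the spliceosome.

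Transfer RNA genes completed this group. CUT748 had the 61 reads of tD(GUC)L2, an aspartate tRNA, against 1615 in the control, and SUT508 the 24 reads of tE(UUC)E1, a glutamate tRNA, from 21 cDNAs against 2129 from 149. SUT030 had 53 antisense reads with Sni445-HTP, where the proline tRNA gene SUF2 had 46, and the same 2039 as SUF2 in the control. The antisense reads of mRNA partners seen with Sni445-HTP alone were few, such as the 23 of SUT609 and XUT_9R-63 opposite COX5B, a subunit of cytochrome c oxidase.

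The plot of antisense reads by partner sets these members side by side. They were chosen by their reads in the control, so their values there are high by choice, and transcripts with a gene opposite only in the Sni445-HTP reads are not among them. The 9 opposite a snoRNA, snRNA or tRNA gene, which lie opposite 7 genes, had 1615 to 2610 antisense reads in the control and 24 to 707 with Sni445-HTP. The 20 opposite a protein-coding gene, which lie opposite 18 genes, had 27 to 7267 in the control and 0 to 10 with Sni445-HTP. Transcripts opposite an mRNA gene by the Sni445-HTP reads reached 23, as for SUT609. As whole families, tRNAs and protein-coding genes had like ratios between the libraries, -5.85 and -5.34 on the log2 scale. The values are a description, and no difference between these groups is read from them.

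**Figure D3:**
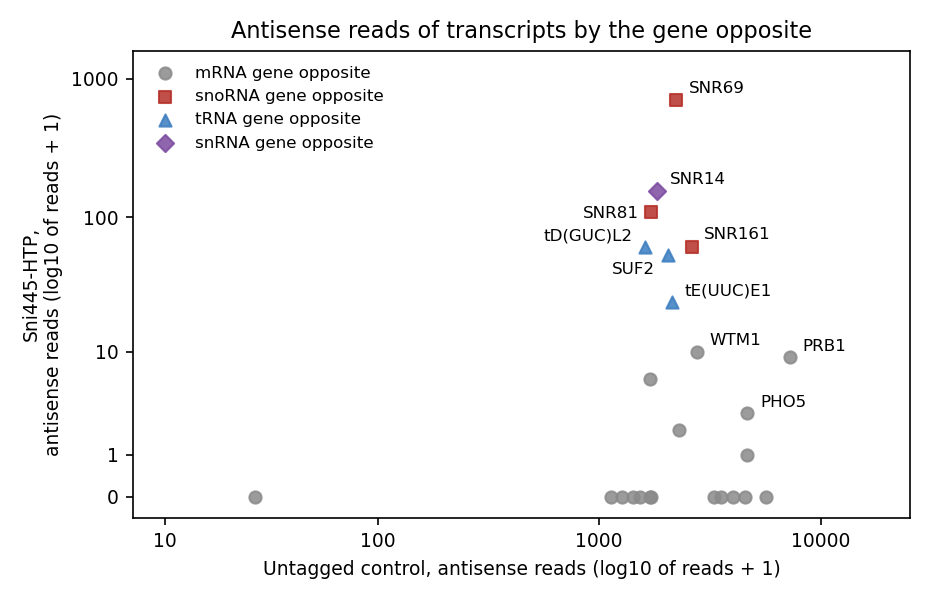
Each point is a gene whose reads were counted as antisense reads of a CUT, SUT or XUT in the control, with the antisense reads of that transcript in the control on the x axis and with Sni445-HTP on the y axis, both as log10 of reads + 1 with labels in reads, and the kind of gene as colour and shape. The transcripts were chosen by their control reads, and with Sni445-HTP those opposite snoRNA, snRNA and tRNA genes have 24 to 707 reads and those opposite mRNA genes 0 to 10.

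Several named transcripts had antisense reads but no gene with exactly equal counts on the opposite strand. This does not mean that no gene lies there. With Sni445-HTP CUT211 had 61 antisense reads from 6 cDNAs, CUT916 had 67 from 22 and XUT_7R-275 had 54 from 13. CUT617 had 20, which together with 3 sense reads came from 7 cDNAs. All had 0 in the control. In the control CUT702 had 2240 reads from 43 cDNAs and CUT197 had 2178 from 33, both with 0 with Sni445-HTP. XUT_2F-177 had 4662, 1 more than CUT025 and PHO5, against 9. PHO5 lies on the minus strand of chromosome II, the chromosome in the name of this XUT. SUT664 had the same 1309 control reads as XUT_11R-109, from 75 cDNAs, against 28 with Sni445-HTP. XUT_13F-222 had 5748 against 16, and the 16 equalled in number the reads of YHR063W-A on the same strand. In the control YHR063W-A had 0 reads, so the 5748 reads of XUT_13F-222 were not shared with that gene.

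The reads of a transcript came from a small number of distinct cDNAs. This number is given for both directions together. With Sni445-HTP 63 CUTs, 61 SUTs and 120 XUTs rested on a single cDNA, or 63.0%, 62.2% and 59.7% of those listed, against 39.7% of the features outside the classes. In the control the shares were 33.3%, 34.5% and 23.1%, against 13.5% outside. The classes rested on a single cDNA more often than the other features in both libraries. Most listings with Sni445-HTP thus rest on 1 distinct cDNA. How many RNA pieces a cDNA stands for is not known here.

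Each cDNA was read far more often in the control. The classes had 3.62, 6.07 and 4.44 reads per cDNA with Sni445-HTP, for CUTs, SUTs and XUTs, and 36.4, 44.6 and 46.7 in the control. The medians over transcripts were 3 in each class with Sni445-HTP and 14.3, 14.3 and 26.9 in the control. Outside the classes the medians were 2.56 and 21.7. Pooled, protein-coding genes had 6.89 and 46.4 reads per cDNA and tRNAs 3.04 and 31.6. The pooled values of snoRNAs, 383 and 58.8, and of intergenic regions, 207 and 44.8, went the other way. Their medians over features did not, at 4.21 and 48.0 for snoRNAs and 2.5 and 17.4 for intergenic regions. Counted as cDNAs, CUTs had 301 with Sni445-HTP and 728 in the control, SUTs 248 and 783, and XUTs 504 and 1688. The gap between the libraries was smaller in cDNAs than in reads for all 3 classes.

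**Figure D4:**
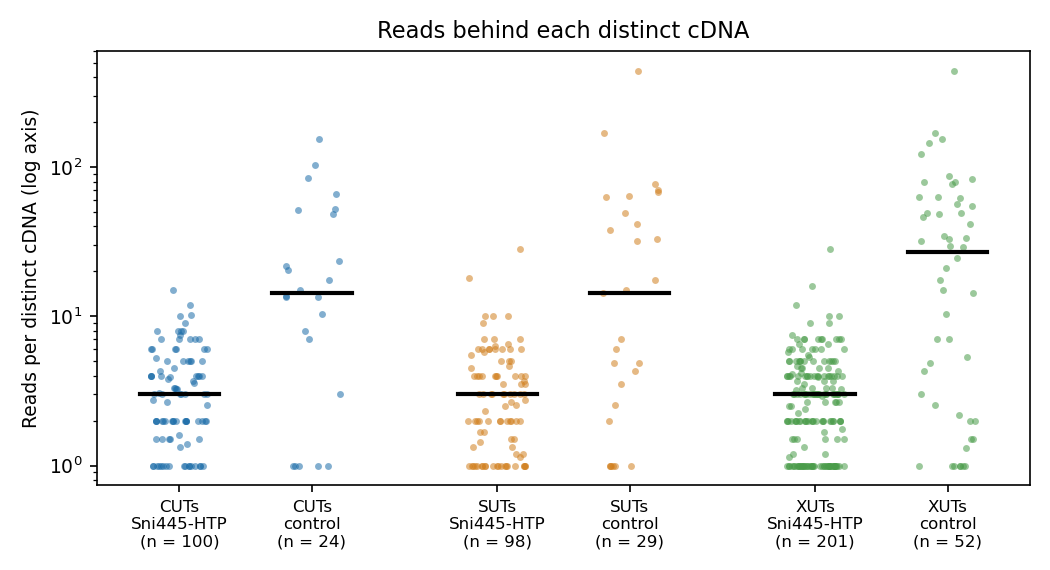
Each point is 1 listed transcript with its reads of both directions per distinct cDNA, on a log axis, by class and library, and the black line is the median. The medians are 3 in each class with Sni445-HTP and 14.3, 14.3 and 26.9 in the control.

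Reads on the classes, both directions together, were also shorter with Sni445-HTP. Within the length of 30 were 67.0% of the reads on CUTs, 81.9% on SUTs and 70.3% on XUTs, and in the control 26.5%, 22.5% and 18.4%. Features outside the classes had 52.2% and 41.0%, among them protein-coding genes with 68.8% and 38.9% and tRNAs with 50.8% and 14.4%. Sense reads of CUTs went the other way, at 75.1% against 83.7% for the control, where the value was 5.49% without CUT459. In the control most transcripts fell to one side, since of the 55 with at least 100 reads 40 had under 10% and 13 over 90% of their reads within 30, with only 2 between. CUT459 with 2368 of 2368 and CUT544 with 0 of 464 are examples. Of the 1602 other features with that minimum, 701 were under 10%, 346 over 90% and 555 between.

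With Sni445-HTP, 82 transcripts had at least 10 reads, of which 3 had under 10%, 33 over 90% and 46 between. Of the 1971 other features with that minimum, 147 were under 10%, 394 over 90% and 1430 between. The number of cDNAs behind these transcripts was 1 to 43 with a median of 4, and behind the 55 of the control 5 to 149 with a median of 47. The part of the number of distinct cDNAs in the split by length was not tested.

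**Figure D5:**
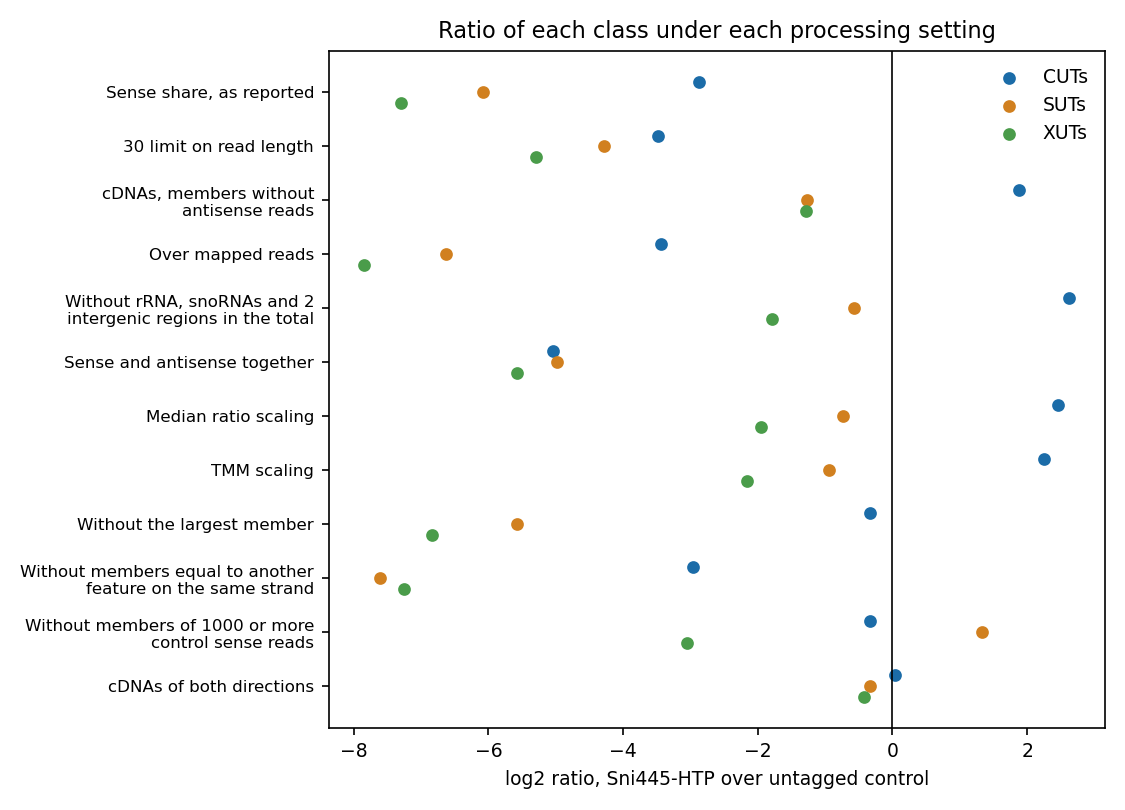
Points give the log2 ratio of Sni445-HTP over the untagged control for CUTs, SUTs and XUTs, 1 line for each way of processing, with the reported sense share at the top and a line at 0. CUTs run from -5.04 to 2.63, SUTs from -7.61 to 1.32 and XUTs from -7.85 to -0.43.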

How the data were processed

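CRAC libraries of 1 Sni445-HTP strain and 1 untagged control were used. The authors checked reads with FastQC 0.12.1, aligned them with Novoalign 3.09.00, placing a read with several matches at random, and counted overlaps with the features of EF2.59 by Counters 1.4.4, as named in the header. The deposited counts are whole reads per feature, in sense and antisense, under read length limits of 30 and 1000, with a number of distinct cDNAs that is not split by direction. How reads were collapsed is not given in the sources used here.

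Values are for the 1000 limit unless stated. Shares were taken over all sense counts with Clopper-Pearson intervals at 95%, ratios with conditional binomial intervals and a floor of 3 counts per library. Partners needed at least 10 reads. Named were, per class, the 5 members with most sense and antisense reads in each library, every called member, those with at least 10 sense reads in both libraries, and gene partners, with the partners of other members and the intergenic regions beside CUT628 and CUT153 chosen after their values were seen. Members and lists were chosen with earlier results of these data known. R64 served only for places and sequences of genes, by name, since its build differs. Python 3.11.15, scipy 1.17.1, pandas 2.3.3, matplotlib 3.10.9 and edgeR 4.0.16 were used, and the rule of size was tested on simulated counts.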

Additional observations from a re-analysis of the deposited data

How the results depend on the processing

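The log2 ratio of CUTs, -2.88, was -3.49 under the 30 limit, -3.43 over mapped reads, -5.04 with both directions and -0.34 without CUT459, and reversed to 1.88 in cDNAs of members without antisense reads, 2.63 with rRNA, snoRNAs, INT_0_2879 and INT_0_9029 left out of the total, 2.46 under median ratio scaling and 2.25 under TMM. In the same order SUTs, at -6.07, moved to -4.28, -6.63, -4.98, -5.57 without SUT395, -1.27, -0.57, -0.73 and -0.94, and to -7.61 without members equal to an outside feature. XUTs, at -7.29, moved to -5.29, -7.85, -5.58, -6.84 without XUT_16F-35, -1.28, -1.78, -1.95 and -2.16. Added after seeing the data, leaving out members of 1000 or more control sense reads gave -0.34 for CUTs, 1.32 for SUTs (reversed) and -3.05 for XUTs, and cDNAs of both directions 0.044 (reversed), -0.34 and -0.43. The scaling alternatives differ by their construction in the total alone, and for the others the cause was not tested. Transcripts with sense reads became, at a minimum of 10, 8 and 3 CUTs, 3 and 10 SUTs and 2 and 12 XUTs with Sni445-HTP and in the control, and with either direction 100 and 24, 98 and 29, and 201 and 52. A minimum of 10 reads called 9 of 13 members higher, against 25.4% of all features, and the 30 limit called 5 of 5 lower, against 96.6%. No paired analysis was possible because each strain has 1 library, and for the same reason no library could be left out. Few cDNAs per transcript limit every single value.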
